A study of Homo sapiens with 12 samples.

Results

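The 30 genes described here encode the nuclear RNA exosome, the adaptors that feed it, the nuclear cap-binding and ARS2 proteins, and the ZC3H4-WDR82 restrictor. They were chosen by symbol from a written list, and all 30 were found among the 60583 genes of the count tables. TT-seq was used to read nascent RNA: newly made RNA carries a 4-thiouridine label and is fragmented, tagged with biotin, captured and sequenced. The samples were 12 libraries in 4 groups of 3, all from U2OS, a human osteosarcoma line, or its derivative U2OS-AsiSI, and all collected 48 hours after siRNA transfection. The 4 groups were U2OS with a control siRNA (siCtrl), U2OS with an siRNA to INTS11 (siINTS11), and U2OS-AsiSI with each of the same siRNAs. The U2OS-AsiSI cells express AsiSI-ER, a restriction nuclease joined to a hormone-receptor domain, and received 4-hydroxytamoxifen (OHT) for 1 hour, whereas no OHT is given for the U2OS cells. Line, nuclease and OHT therefore differ together and cannot be told apart. Nothing in the labels says that replicates were separate cultures, so p-values measure the spread between these libraries, which may be technical.

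The RNA exosome is a ring of inactive RNase-like subunits topped by a cap of RNA-binding subunits, with the nucleases DIS3 and EXOSC10 attached. In the nucleus the helicase MTREX threads RNA into it and is brought to its substrates by adaptor complexes: NEXT (ZCCHC8, RBM7) for short-lived unprocessed transcripts, the PAXT connection (ZFC3H1, ZC3H3) for polyadenylated nuclear RNA, and TRAMP (ZCCHC7 with the polymerases TENT4B or TENT4A) for oligoadenylation. The cap-binding complex of NCBP1 and NCBP2, joined by ARS2 (gene SRRT), links capped nascent RNA either to these adaptors or to export. INTS11 is the endonuclease of Integrator, which like the restrictor cuts short transcription that is not productive, and the study's libraries allow the genes of these partner pathways to be followed when INTS11 is targeted.

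Promoter sequence is shown for the restrictor pair, ZC3H4 and WDR82, and for a TRAMP pair, ZCCHC7 and TENT4B, because ZC3H4 was among the genes that rose most and ZCCHC7 fell most. Each line gives the 150 bases before the RefSeq transcription start (GRCh38.p14) on the gene's own strand, read 5′ to 3′, and in these windows GENCODE 29 annotates 0 exon bases. They lie at chr19:47113777-47113926 (ZC3H4, minus strand), chr3:52278650-52278799 (WDR82, minus strand), chr9:37120322-37120471 (ZCCHC7, plus strand) and chr16:50152761-50152910 (TENT4B, plus strand). Capitals mark matches on either strand to the GC box GGGCGG (complement CCGCCC), the CCAAT box and the ETS core CCGGAA.
ZC3H4: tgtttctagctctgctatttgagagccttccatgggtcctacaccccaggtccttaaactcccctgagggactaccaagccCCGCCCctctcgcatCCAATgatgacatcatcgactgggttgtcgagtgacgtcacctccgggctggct
WDR82: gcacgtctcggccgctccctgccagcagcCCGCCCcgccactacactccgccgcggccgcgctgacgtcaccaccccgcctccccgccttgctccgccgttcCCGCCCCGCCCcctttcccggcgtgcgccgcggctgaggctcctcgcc
ZCCHC7: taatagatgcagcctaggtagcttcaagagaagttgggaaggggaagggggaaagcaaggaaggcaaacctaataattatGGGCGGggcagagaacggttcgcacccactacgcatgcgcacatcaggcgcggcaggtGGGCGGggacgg
TENT4B: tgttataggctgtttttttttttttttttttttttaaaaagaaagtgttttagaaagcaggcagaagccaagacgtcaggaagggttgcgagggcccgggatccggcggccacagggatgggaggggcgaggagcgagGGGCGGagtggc
The ZC3H4 window held 1 GC box and 1 CCAAT box, the WDR82 window 3 GC boxes of which a pair overlap, the ZCCHC7 window 2 GC boxes and the TENT4B window 1. RefSeq promoters of 300 bases (250 before and 50 after the start) were matched for 25 of the 30 genes. Sequence from just after the RefSeq start was found in a GENCODE 29 transcript of the same gene for 21 of them. WDR82 and TENT4B were among those found. ZC3H4 and ZCCHC7 were not, so the starts of their printed windows were not matched to GENCODE 29 in this way. GGGCGG was present in 21 of the 25 (84%), against 44.6% of all 27305 promoters of that length, and CCGGAA in 12 (48%) against 17.6%. CCAAT was present in 8 (32%, against 35.7%), the TATA box TATAAA in 1 (4%, against 12%), the E-box CACGTG in 2 (8%, against 7.43%) and the NRF1 palindrome in 0 (against 1.36%). All 6 motifs were searched on both strands. The 25 promoters were also richer in GC, with a median of 62.3% against 58.3%, and held a median of 27 CG dinucleotides against 14, so base composition moves with the GC-box share and its part was not tested. For WDR82 the gene's span in the tables begins 9371 bases upstream of the RefSeq start used here, and for C1D 47944 bases upstream.

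Library totals ran from 20704611 to 38065726 counts, and replicates differed by more than counting noise in every group (chi-square per degree of freedom 2.11 to 3.10). The counts cover the whole gene span, introns included. INTS11 itself, the targeted gene, stood at 10.1, 8.98 and 10.2 CPM under siCtrl in U2OS and at 7.78, 6.97 and 7.09 under siINTS11, a log2 fold change of -0.42 (edgeR adjusted p 6.08e-05). CPM here means counts relative to the library total, scaled by the trimmed mean of M-values (TMM). In U2OS-AsiSI INTS11 stood at 9.63, 10.9 and 9.71 CPM under siCtrl and 9.11, 9.37 and 9.53 under siINTS11. That change of -0.13 did not pass the threshold (edgeR adjusted p 0.172). Fitted as an interaction, U2OS-AsiSI minus U2OS came to 0.25 for INTS11 and did not pass either (edgeR adjusted p 0.235). These are nascent reads, and the data hold no level of mature INTS11 mRNA or protein. Knockdown was therefore not tested in either line, and directions in both are those of the libraries labelled siINTS11. Mesenchymal markers were mixed: VIM, SPARC, RUNX2 and FN1 had medians of 143 to 282 CPM over the 12 libraries, ALPL 2.47 to 11.9 CPM, and COL1A2 and TWIST1 2 to 13 counts. Among epithelial markers KRT8 and KRT18 were read at 22.6 to 78.4 CPM, EPCAM and CDH1 at 3.80 to 8.32, and ESRP1 at 10 counts or fewer, while each of 5 blood markers had 7 counts or fewer and HBB had 0. Under TMM scaling some markers moved with siINTS11. Of 4 epithelial markers tested, of 5 in the list, KRT8 and KRT18 rose in U2OS-AsiSI, by 0.39 and 0.49, and all 4 rose in U2OS, KRT8 and KRT18 by 0.19 and 0.21 (edgeR, adjusted p under 0.05). The summed CPM of the epithelial list ran from 85.8 to 91.0 under siCtrl and 99.8 to 106 under siINTS11 in U2OS, and from 93.5 to 102 and 126 to 137 in U2OS-AsiSI. RUNX2 fell by 1.07 in U2OS-AsiSI and 0.84 in U2OS, and ALPL rose by 1.31 and 1.47. The part of these changes in the results below was not tested.

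The nascent reads of these genes moved little in size when INTS11 was targeted: none changed 2-fold. After siINTS11 in U2OS-AsiSI, 15 of the 29 genes tested passed an adjusted p of 0.05 (51.7%), 4 higher and 11 lower, whereas 68% of all 20441 genes tested passed, 35.4% higher and 32.6% lower. In U2OS 17 of 29 passed (58.6%), 7 higher and 10 lower, against 66.9% of 20687 genes, 34.5% higher and 32.4% lower. The share that passed was thus not above the background in either line. Among protein-coding genes, to which all 29 belong, 68.1% of 13773 passed in U2OS-AsiSI, 5439 of them lower. In U2OS 67.3% of 13831 passed, 5421 of them lower. The median absolute log2 fold change over the 29 was 0.13 in U2OS-AsiSI and 0.14 in U2OS, against 0.35 and 0.33 over all genes tested, and the signed medians were -0.04 and -0.00 against 0.03 and 0.02 over all genes and -0.05 in each line over protein-coding genes.

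Across both lines, 11 genes passed in the same direction and 0 in opposite directions. The 4 that rose in both were ZC3H4, NCBP2, EXOSC5 and EXOSC4, and the 7 that fell in both were ZCCHC7, MTREX, ZC3H3, ZFC3H1, C1D, TENT4B and PHAX. A further 10 passed in one line, 8 in neither, and EXOSC3 could not be tested. These are bulk libraries, so a lower level cannot be told apart into fewer cells of a kind and less RNA per cell.

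**Figure D1:**
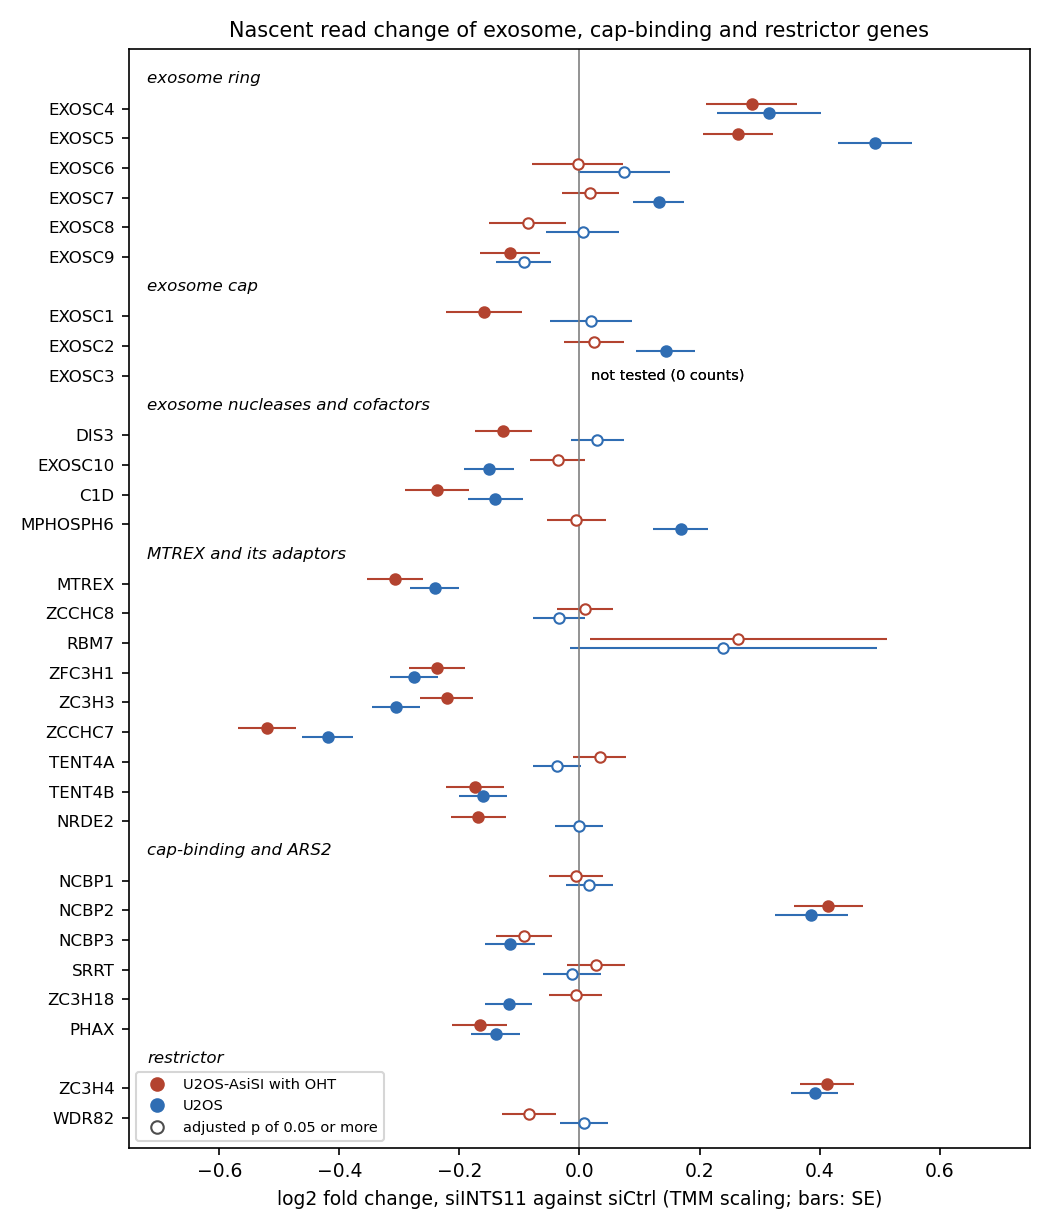
Log2 fold change of siINTS11 against siCtrl for each gene, grouped by complex, with U2OS-AsiSI in red and U2OS in blue. Bars are standard errors and open circles did not pass an adjusted p of 0.05; ZC3H4 and NCBP2 stand to the right in both lines, and ZCCHC7 and MTREX to the left.

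Directions here are relative to a typical gene. Scaling by library totals alone moved the median of all genes to 0.22 in both lines, and then 15 of the 29 were called higher and 2 lower in U2OS-AsiSI, and 18 higher and 2 lower in U2OS. Of the values past the threshold under one scaling or the other, 12 changed sign in U2OS-AsiSI and 10 in U2OS. Under that scaling ZC3H4 rose by 0.60 and 0.59 on the log2 scale in U2OS-AsiSI and U2OS, NCBP2 by 0.60 and 0.59, and ZCCHC7 fell by 0.33 and 0.22. ZCCHC7 was the one gene still called lower in both lines; MTREX was still lower in U2OS-AsiSI (-0.12) and ZC3H3 in U2OS (-0.11). The falls of ZFC3H1, C1D, TENT4B and PHAX passed under TMM scaling and not under library totals in either line. EXOSC4, EXOSC5, NCBP2, ZC3H4 and ZCCHC7 passed in the same direction in both lines under every one of the 14 alternatives in which they were tested. EXOSC4, and NCBP2 in U2OS-AsiSI, were not tested in the alternative restricted to genes under 0.1 reads per base.

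**Figure D2:**
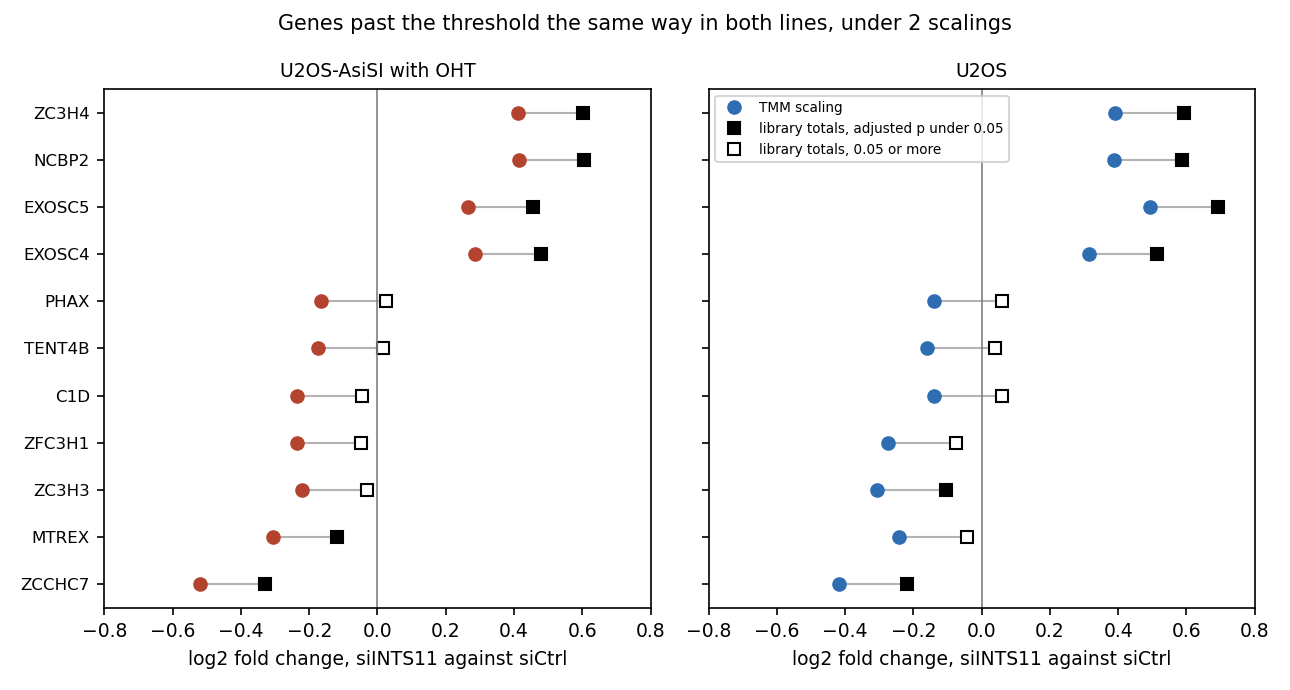
Log2 fold change under TMM scaling (circles) and under library totals alone (squares) for the 11 genes past the threshold in the same direction in both lines. The 4 risers stay right of 0 and past the threshold in both lines, and of the 7 fallers ZCCHC7 is the one that stays left of 0 and past it in both.

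The ring of the exosome showed 2 genes that rose and 4 that did not pass in both lines. EXOSC5, a ring subunit (chromosome 19, 41386374 to 41397359, minus strand), was read at 17.4, 17.3 and 18.0 CPM under siCtrl in U2OS and 24.6, 26.3 and 23.2 under siINTS11. In U2OS-AsiSI it was read at 20.8, 21.1 and 22.4 CPM under siCtrl and 25.7, 26.3 and 26.1 under siINTS11. The siINTS11 libraries lay above the siCtrl libraries without overlap in both lines, by 0.49 on the log2 scale (SE 0.06, edgeR adjusted p 2.9e-09) in U2OS and 0.26 (SE 0.06, adjusted p 0.000222) in U2OS-AsiSI. The whole EXOSC5 span lies inside AC011462.1 on the opposite strand, and the strand setting of the counting is not given in the sources used here. EXOSC5 still had 477 to 823 counts per library. Of 942 protein-coding genes wholly inside a gene of the other strand and without same-strand overlap, 174 had 0 counts throughout (18.5%). All 634 covered wholly on their own strand had 0. Opposite-strand cover thus did not remove all reads as same-strand cover did. Of 12292 genes without same-strand overlap and not wholly inside a gene of the other strand, 7.54% had 0 counts throughout. The median was 0.000347 reads per base for the 942 genes inside and 0.0118 for the 12292 others. Whether such cover lowers counts was not tested. Any share of AC011462.1 in the EXOSC5 reads was not tested. EXOSC4, another ring subunit and the shortest gene of the set at 2.001 kb (chromosome 8, 144078648 to 144080648, plus strand), stood at 7.85, 7.26 and 7.72 CPM under siCtrl in U2OS and 10.2, 9.29 and 8.79 under siINTS11. In U2OS-AsiSI it stood at 11.4, 11.5 and 11.2 CPM under siCtrl and 13.1, 15.3 and 13.8 under siINTS11. Again the groups did not overlap, with changes of 0.32 (SE 0.09, edgeR adjusted p 0.0015) in U2OS and 0.29 (SE 0.08, adjusted p 0.00144) in U2OS-AsiSI. AC109322.1 on the opposite strand covers 30.9% of the EXOSC4 span, and any share of it in the EXOSC4 reads was not tested.

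The other ring genes moved less. EXOSC7 rose in U2OS by 0.13 on the log2 scale (SE 0.04, edgeR adjusted p 0.0071) and its value in U2OS-AsiSI was 0.02. CLEC3B, which had 0 counts, covers 56.8% of the EXOSC7 span on the same strand and leaves 26307 bases outside it. EXOSC9 fell by 0.12 in U2OS-AsiSI (edgeR adjusted p 0.0429), a call kept in 6 of 14 alternatives and lost without siCtrl replicate 2 or 3 or siINTS11 replicate 2 or 3 of that line, and had -0.09 in U2OS (adjusted p 0.0725). EXOSC6 and EXOSC8 passed in neither line, with values of -0.00 and -0.09 in U2OS-AsiSI and 0.07 and 0.01 in U2OS.

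The cap subunits, which bind RNA at the entry of the channel, gave calls in one line each. EXOSC1 fell by 0.16 in U2OS-AsiSI (edgeR adjusted p 0.0277; called in 7 of 14 alternatives) and had 0.02 in U2OS, and EXOSC2 rose by 0.14 in U2OS (adjusted p 0.00982; called in 11 of 13) and had 0.02 in U2OS-AsiSI. EXOSC1 missed the threshold without siCtrl replicate 1 or 3 or siINTS11 replicate 1 or 2 of U2OS-AsiSI, and EXOSC2 missed it without U2OS siINTS11 replicate 1. EXOSC3, the third cap subunit, had 0 counts in all 12 libraries. Its span (chromosome 9, 37766978 to 37801437, minus strand) lies wholly inside AL138752.2, annotated on the same strand, which had 925 to 1865 counts per library and fell by 0.39 in U2OS-AsiSI and 0.36 in U2OS. All 634 protein-coding genes covered wholly by another gene on their strand had 0 counts in all libraries (100%), against 1101 of 13234 without such overlap (8.32%), so the 0 of EXOSC3 says nothing of its transcription.

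Of the nucleases, DIS3, which has endonuclease and exonuclease activity, fell by 0.13 in U2OS-AsiSI (SE 0.05, edgeR adjusted p 0.0183) and had 0.03 in U2OS. That call was kept in 9 of 14 alternatives and was lost without siCtrl replicate 1 (adjusted p 0.0577) or siINTS11 replicate 3 (adjusted p 0.0853) of U2OS-AsiSI. EXOSC10, the nuclear distributive exonuclease, passed in U2OS alone, where it fell by 0.15 (SE 0.04, edgeR adjusted p 0.00144), and had -0.04 in U2OS-AsiSI. The difference between the lines did not pass for EXOSC10 (0.08, edgeR adjusted p 0.494) or for DIS3 (-0.19, adjusted p 0.0703).

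The EXOSC10 cofactors C1D and MPHOSPH6 differed from each other. C1D (chromosome 2, 68041130 to 68110948, minus strand) stood at 51.9, 55.0 and 54.9 CPM under siCtrl in U2OS and 47.5, 47.7 and 51.4 under siINTS11. In U2OS-AsiSI it stood at 52.8, 48.0 and 49.0 CPM under siCtrl and 45.5, 40.0 and 42.4 under siINTS11. The groups were close but did not overlap, and the changes were -0.14 (SE 0.05, edgeR adjusted p 0.00655) and -0.24 (SE 0.05, adjusted p 0.000264). C1D has 5 named pseudogenes that could share its reads. MPHOSPH6 rose by 0.17 in U2OS (SE 0.05, edgeR adjusted p 0.00128) and had -0.01 in U2OS-AsiSI.

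MTREX and its adaptors held no gene that rose past the threshold in either line under TMM scaling, whereas under library totals alone TENT4A and ZCCHC8 were called higher in both lines and NRDE2 in U2OS, and 2 genes were lower in each line. Of the 9 genes, 6 fell in U2OS-AsiSI and 5 in U2OS, where 32.6% and 32.4% of all genes tested were lower. Of protein-coding genes tested, 5439 of 13773 and 5421 of 13831 were lower. Their median log2 fold changes were -0.17 and -0.16, against 0.03 and 0.02 for all genes tested and -0.05 in each line for protein-coding genes. MTREX, the helicase (chromosome 5, 55307989 to 55425579, plus strand), was read at 267, 282 and 293 CPM under siCtrl in U2OS and 240.2, 228 and 243 under siINTS11. In U2OS-AsiSI it was read at 285, 269.9 and 269 CPM under siCtrl and 234, 225 and 212 under siINTS11. All siINTS11 libraries lay below all siCtrl libraries of their line, and MTREX fell by 0.24 (SE 0.04, edgeR adjusted p 2.02e-06) in U2OS and 0.31 (SE 0.05, adjusted p 8.08e-07) in U2OS-AsiSI.

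The TRAMP genes were split. ZCCHC7, the zinc-knuckle subunit and the longest gene of the set at 237.6 kb (chromosome 9, 37120539 to 37358149, plus strand), was read at 388, 381 and 421 CPM under siCtrl in U2OS and 293, 299.5 and 296 under siINTS11. In U2OS-AsiSI it was read at 387, 350.1 and 358 CPM under siCtrl and 274, 250.1 and 246 under siINTS11. Groups were well apart, and ZCCHC7 was 1.34-fold lower in U2OS (log2 -0.42, SE 0.04, edgeR adjusted p 8.42e-12) and 1.43-fold lower in U2OS-AsiSI (log2 -0.52, SE 0.05, adjusted p 7.2e-11). TENT4B, a non-canonical poly(A) polymerase, fell by 0.16 in U2OS (edgeR adjusted p 0.000632) and 0.17 in U2OS-AsiSI (adjusted p 0.00216). Its paralogue TENT4A had -0.04 and 0.03 and passed in neither line.

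Both PAXT genes fell. ZC3H3, a zinc-finger protein (chromosome 8, 143437659 to 143541447, minus strand), stood at 224, 209 and 222 CPM under siCtrl in U2OS and 178, 176 and 175 under siINTS11. In U2OS-AsiSI the values were 210.1, 204 and 199 CPM under siCtrl and 176, 173 and 182 under siINTS11. No library of one siRNA reached into the range of the other, and the changes were -0.31 (SE 0.04, edgeR adjusted p 8.88e-09) and -0.22 (SE 0.04, adjusted p 6.44e-05). ZFC3H1, the large scaffold that ties MTREX to poly(A)-binding proteins (chromosome 12, 71609472 to 71667725, minus strand), stood at 106, 105 and 113 CPM under siCtrl in U2OS and 88.9, 87.7 and 90.7 under siINTS11. In U2OS-AsiSI it stood at 103, 99.0 and 97.6 CPM under siCtrl and 89.2, 86.7 and 80.8 under siINTS11. Its groups were apart as well, with changes of -0.28 (SE 0.04, edgeR adjusted p 9.83e-08) and -0.24 (SE 0.05, adjusted p 5.35e-05).

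The NEXT genes did not pass in either line. ZCCHC8, the NEXT scaffold, had -0.03 in U2OS and 0.01 in U2OS-AsiSI. RBM7, the RNA-binding subunit, had 17 to 33 counts per library and changes of 0.24 (SE 0.26, edgeR adjusted p 0.415) and 0.26 (SE 0.25, adjusted p 0.348). AP002373.1, a gene annotated on the same strand, covers 95.4% of the RBM7 span and leaves 652 bases outside it, so RBM7 was measured over that stretch at most. AP002373.1 itself fell by 1.08 in U2OS (edgeR adjusted p 3.94e-20) and 1.2 in U2OS-AsiSI (adjusted p 3.9e-16). All 634 protein-coding genes covered wholly by another gene on their strand had 0 counts, so reads in such overlaps appear to be counted for neither gene. The fall of AP002373.1 would then be that of its stretch outside RBM7, and it says nothing of RBM7.

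NRDE2, which binds MTREX and restrains it, was read at 80.4, 81.8 and 79.5 CPM under siCtrl in U2OS and 81.1, 79.8 and 80.4 under siINTS11. In U2OS-AsiSI the values were 82.3, 84.2 and 82.2 CPM under siCtrl and 74.3, 77.0 and 72.1 under siINTS11. The groups overlapped in U2OS and were apart in U2OS-AsiSI, where NRDE2 (chromosome 14, 90267860 to 90331969, minus strand) fell by 0.17 (SE 0.05, edgeR adjusted p 0.0019), with -0.00 (SE 0.04, adjusted p 0.996) in U2OS.

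In the cap-binding complex the small and the large subunit parted in their log2 fold changes. NCBP2, the subunit that holds the cap (chromosome 3, 196935402 to 196942594, minus strand), was read at 19.3, 19.9 and 17.9 CPM under siCtrl in U2OS and 25.6, 25.1 and 23.9 under siINTS11. In U2OS-AsiSI it was read at 21.2, 22.6 and 22.5 CPM under siCtrl and 30.1, 30.5 and 28.8 under siINTS11. Every siINTS11 library exceeded every siCtrl library of its line, and NCBP2 was 1.31-fold higher in U2OS (log2 0.39, SE 0.06, edgeR adjusted p 4.13e-07) and 1.33-fold higher in U2OS-AsiSI (log2 0.41, SE 0.06, adjusted p 2e-07). NCBP2-AS1 on the opposite strand covers 37.0% of that span. NCBP1, the large subunit that stabilises it, had 0.02 and -0.01 and passed in neither line. Both lay above most protein-coding genes of their own span class, as set out below. In U2OS NCBP1 lay above 67.6% and NCBP2 above 75.9%, and in U2OS-AsiSI above 64.9% and 76.7%.

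The partners of the cap-binding complex fell or did not pass. PHAX, the snRNA export adaptor, fell by 0.14 in U2OS (edgeR adjusted p 0.00259) and 0.17 in U2OS-AsiSI (adjusted p 0.00224). ZC3H18, which joins the cap-binding complex to NEXT and PAXT, fell by 0.12 in U2OS (edgeR adjusted p 0.0079) and had -0.01 in U2OS-AsiSI. Under library totals alone its U2OS value turned to 0.0825 and passed as higher (adjusted p 0.0301). NCBP3, an alternative cap-binding protein, fell by 0.12 in U2OS (edgeR adjusted p 0.0141), a call kept in 9 of 14 alternatives and lost without siCtrl replicate 2 or 3 or siINTS11 replicate 2 of U2OS. It had -0.09 in U2OS-AsiSI (edgeR adjusted p 0.0821). SRRT, encoding ARS2, had -0.01 and 0.03.

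The restrictor pair also parted. ZC3H4, its zinc-finger subunit (chromosome 19, 47064187 to 47113776, minus strand), was read at 141, 135 and 137 CPM under siCtrl in U2OS and 179.5, 182 and 178 under siINTS11. In U2OS-AsiSI it was read at 132, 137 and 139 CPM under siCtrl and 178, 183 and 187 under siINTS11. The siINTS11 libraries stood well above the siCtrl libraries in both lines, 1.31-fold in U2OS (log2 0.39, SE 0.04, edgeR adjusted p 9.89e-12) and 1.33-fold in U2OS-AsiSI (log2 0.41, SE 0.05, adjusted p 2.58e-09). WDR82, its partner and a shared subunit of other complexes, had 0.01 and -0.08 and passed in neither line. Both promoter windows printed above hold a GC box, beside a log2 fold change of 0.41 for ZC3H4 and -0.08 for WDR82 in U2OS-AsiSI.

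**Figure D3:**
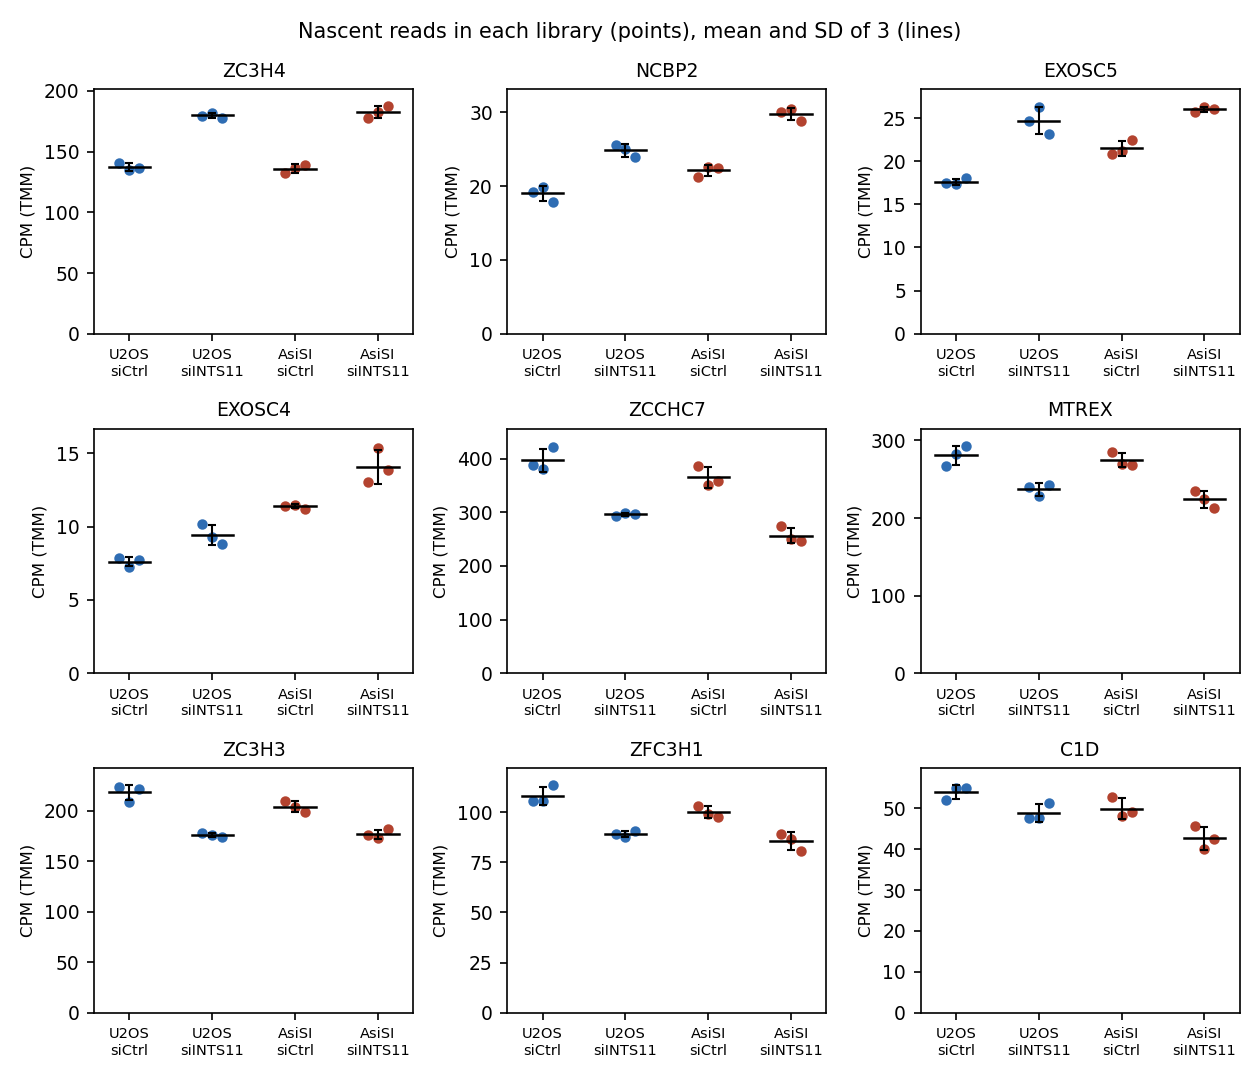
CPM (TMM) in each of the 12 libraries for the 9 genes past the threshold in the same direction in both lines with the largest changes, up to 5 each way; points are libraries, horizontal lines the mean of 3 and error bars the SD. In ZC3H4, NCBP2, EXOSC5 and EXOSC4 the siINTS11 points stand above the siCtrl points of their line, and in ZCCHC7, MTREX, ZC3H3, ZFC3H1 and C1D below.

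Gene length moved with these values. Over the 29 genes the span, 2.001 to 237.6 kb with a median of 33.4 kb over all 30, and the log2 fold change had a Spearman rho of -0.62 in U2OS-AsiSI and -0.68 in U2OS. Over all protein-coding genes tested the same rho was -0.37 and -0.34. These are descriptions over genes that share libraries and are not independent replicates. In U2OS-AsiSI the median change of all protein-coding genes, cut by span into 4 classes of equal size, ran from 0.16 in the shortest class through 0.01 and -0.13 to -0.29 in the longest. The 3 genes of the set in the longest class, MTREX, ZC3H3 and ZCCHC7, all fell in both lines, as did 65.4% of all protein-coding genes of that class in U2OS-AsiSI and 65% in U2OS.

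Set against genes of their own span class, 4 genes that rose lay above most, and the genes that fell in both lines lay at mixed places. ZC3H4, in the third class where the median was -0.13 in U2OS-AsiSI and -0.12 in U2OS, lay above 86.2% of genes in that class in both lines. NCBP2, in the shortest class, lay above 76.7% in U2OS-AsiSI and 75.9% in U2OS, EXOSC5 above 63.9% and 81.4%, and EXOSC4 above 66.6% and 71.0%. Such a place was not particular to genes that rose in both lines. In the third class EXOSC7 lay above 66.95% and 76.4%, TENT4A above 68.2% and 61.6%, and NCBP1 above 64.9% and 67.6%. EXOSC8, EXOSC9 and EXOSC1, in the shortest class, lay below most genes in both lines. ZCCHC7, in the longest class, lay above 27.6% and 31.7%, and MTREX above 48.3% and 51.6%, so the fall of MTREX was near the middle of genes of like span. ZC3H3, of the same class, lay above 57.8% and 43.6%. In the third class C1D lay above 36.8% and 47.3%, TENT4B above 44.2% and 43.9% and ZFC3H1 above 36.8% and 29.3%, and PHAX, in the second class, above 28.0% and 28.3%. The C1D span used here begins 47944 bases upstream of its RefSeq start, so its class rests on that longer span. The part of span in any of these changes was not tested. Without ZC3H4 the rho was -0.68 and -0.75.

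**Figure D4:**
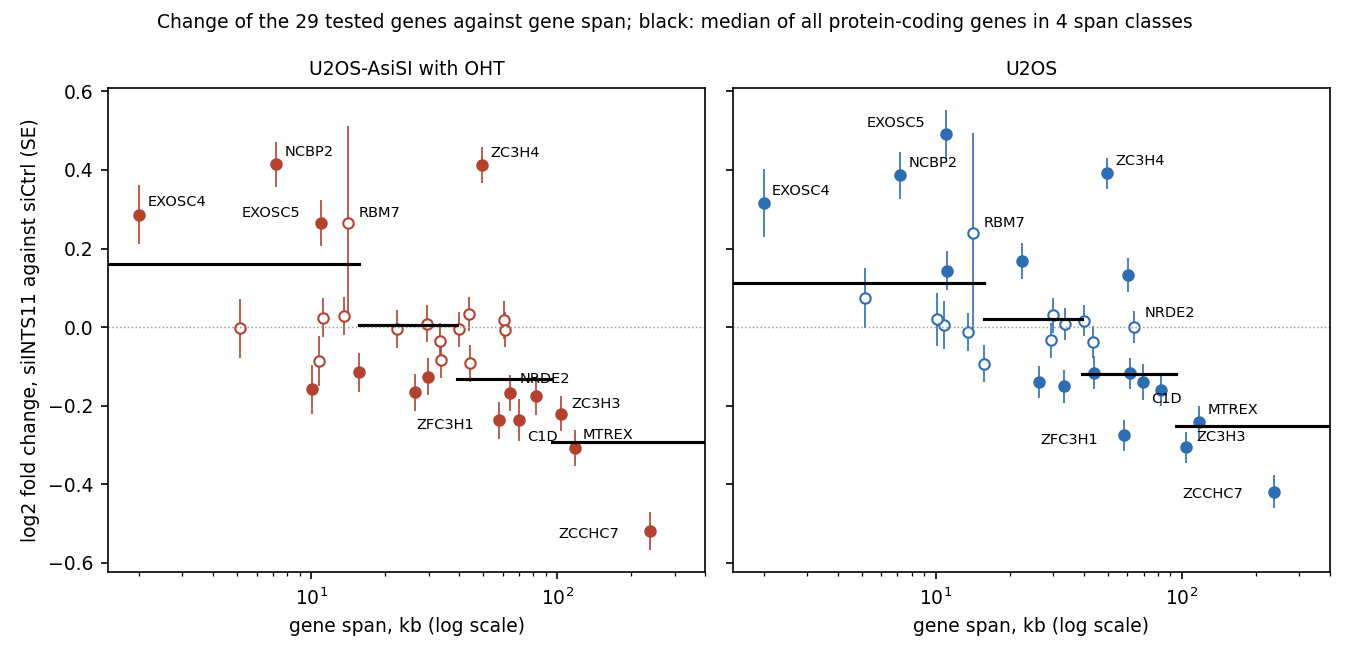
Log2 fold change of siINTS11 against siCtrl (y axis, bars SE) against gene span in kb (x axis, log scale) for the 29 tested genes in U2OS-AsiSI (left) and U2OS (right); black lines are medians of all protein-coding genes in 4 span classes, and open circles did not pass. The points descend with span as the black lines do, and ZC3H4 stands above the line of its class in both lines.

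Whether the 2 lines differed in the siINTS11 effect was tested as an interaction over all 12 libraries. Of 29 genes, 1 passed (3.45%), against 3.87% of 21521 genes (0.762% higher and 3.1% lower), and that gene was NRDE2, with a difference (U2OS-AsiSI minus U2OS) of -0.20 (SE 0.06, edgeR adjusted p 0.0385). It passed in 1 of 20 alternatives, the one without U2OS siCtrl replicate 2 (adjusted p 0.0453), and missed the threshold in the other 19, with adjusted p up to 0.342. The next genes were EXOSC5 at -0.26 (edgeR adjusted p 0.0658), MPHOSPH6 at -0.21 (adjusted p 0.0695) and DIS3 at -0.19 (adjusted p 0.0703). MPHOSPH6 passed without U2OS siCtrl replicate 2, at -0.26 (edgeR adjusted p 0.0295). With all 12 libraries NRDE2 alone passed in the main fit, and it passed in 0 of the 8 alternatives that kept all of them. A difference between the lines was therefore not firmly shown for any gene of the set. The difference was below 0 for 22 of the 29 genes, and its median over all genes tested was -0.05. It was above 0 for 24.1% of the 29, 39.7% of all genes tested and 37% of protein-coding genes. The median over all genes turned to 0.01 with no filter on counts and to 0.02 with a minimum mean of 50 counts.

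Under siCtrl the lines themselves were compared, U2OS-AsiSI with OHT against U2OS without it. These siCtrl libraries also serve in the siINTS11 comparisons above, so the 2 sets of values share their controls. Of the 29 genes 11 passed (37.9%), 9 higher and 2 lower in U2OS-AsiSI, against 34.9% of 19935 genes, 17.8% higher and 17.2% lower. Among protein-coding genes, to which all 29 belong, 41% of 13632 passed. Of the 9 that were higher, 6 were exosome ring, cap or nuclease genes. EXOSC4 was highest, at 11.4 ± 0.146 CPM (SD, n = 3) in U2OS-AsiSI and 7.61 ± 0.310 in U2OS, or 0.61 higher on the log2 scale (SE 0.08, edgeR adjusted p 1.03e-06). EXOSC5, DIS3, EXOSC1, EXOSC2 and EXOSC6 were higher by 0.31, 0.31, 0.28, 0.28 and 0.24 on the log2 scale, NCBP2 by 0.24, SRRT by 0.18 and MPHOSPH6 by 0.16. The genes that were lower were both TRAMP polymerases: TENT4B, at 114 ± 8.21 CPM against 139.6 ± 8.25, by -0.26 (SE 0.05, edgeR adjusted p 6.17e-05), and TENT4A by -0.14 (adjusted p 0.013). The TENT4A call was lost without U2OS siCtrl replicate 1 (edgeR adjusted p 0.108) and under library totals alone (-0.08, edgeR adjusted p 0.0843). That of EXOSC6 was lost without U2OS siCtrl replicate 3 (edgeR adjusted p 0.0848) or U2OS-AsiSI siCtrl replicate 3 (edgeR adjusted p 0.0945). It was also lost with DESeq2 (DESeq2 adjusted p 0.0529). That of MPHOSPH6 was lost without U2OS-AsiSI siCtrl replicate 2 (edgeR adjusted p 0.0502).

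Here too span moved with the values, with a rho of -0.81 over the 29 genes and -0.48 over all protein-coding genes tested. In the shortest span class 7 of 10 genes were higher, where 41.3% of all protein-coding genes were, and in the longest 0 of 3 passed. The part of span was not tested. ZC3H4, MTREX, NCBP1 and ZC3H18 had values of 0.01, -0.01, 0.01 and -0.00 in this comparison.

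**Figure D5:**
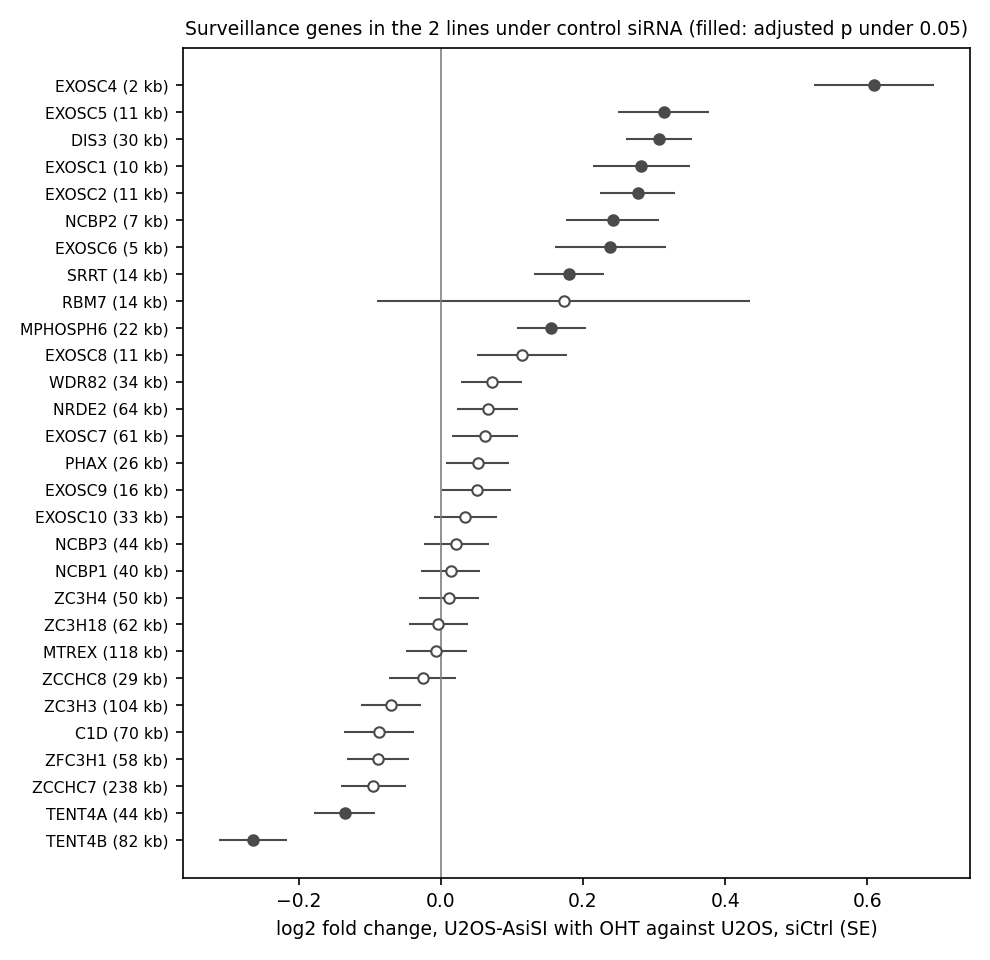
Log2 fold change of U2OS-AsiSI with OHT against U2OS under siCtrl (x axis, bars SE) for the 29 tested genes, each with its span in kb; filled circles passed an adjusted p of 0.05. EXOSC4 is highest at 0.61 and TENT4B lowest at -0.26, and short genes gather at the top.

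Per kilobase of span, TENT4A and EXOSC4 had the highest levels of the set, with means over the 4 groups of 5.39 and 5.31 CPM per kb, followed by EXOSC2 at 3.72 and NCBP2 at 3.33. The level of EXOSC4 ran from 3.80 CPM per kb in U2OS siCtrl to 7.04 in U2OS-AsiSI siINTS11, and that of TENT4A from 5.09 to 5.69, so the order of these 2 turned between groups. ZC3H4 came sixth at 3.20 and ZCCHC7, although it had the most reads of the set before length is counted, came 25th at 1.38. NRDE2 came 26th at 1.24 and C1D 28th at 0.699 CPM per kb, the latter over a span that begins 47944 bases upstream of its RefSeq start. These levels are divided by the full span, bases covered by other gene models included: EXOSC7, at 0.936 CPM per kb, had 0.0642 reads per base over the 26307 bases outside other genes, against 0.0642 for MTREX over its span.

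Genes around these pathways were read as 2 lists, under TMM scaling alone. Of 19 other nuclear surveillance genes 16 were tested after siINTS11: 5 rose and 5 fell in U2OS-AsiSI, and 3 rose and 5 fell in U2OS, with a median of -0.09 in each line. The shares called, 62.5% and 50%, were below the 68% and 66.9% of all genes. NVL, an MTREX-binding ATPase, fell by 0.40 in U2OS-AsiSI (edgeR adjusted p 2.47e-09) and 0.30 in U2OS. DIS3L2, a nuclease of the DIS3 family that was counted in this list although it is cytoplasmic, fell by 0.39 (edgeR adjusted p 2.36e-08) and 0.31. SETD1B, a histone methyltransferase of a WDR82-containing complex, rose by 0.33 in U2OS-AsiSI (edgeR adjusted p 3.89e-07) and 0.21 in U2OS. PPP1R10, which pairs WDR82 with protein phosphatase 1, rose by 0.68 in U2OS-AsiSI (edgeR adjusted p 8.72e-07) and had -0.08 in U2OS, with a difference between the lines of 0.73 (adjusted p 0.00378).

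The 5 genes of the cytoplasmic exosome and its Ski helicase were lower where they passed. In U2OS-AsiSI 4 of 5 fell and 0 rose, and in U2OS 3 fell and 0 rose, where 32.6% and 32.4% of all genes tested were lower. DIS3L, the cytoplasmic counterpart of DIS3, fell by 0.78 in U2OS-AsiSI (SE 0.05, edgeR adjusted p 1.33e-14) and 0.50 in U2OS (SE 0.04, adjusted p 1.12e-13), with a difference between the lines of -0.31 (adjusted p 0.00521). SKIC3, the Ski scaffold, fell by 0.42 in U2OS-AsiSI (edgeR adjusted p 5.2e-09) and 0.33 in U2OS, and HBS1L, which has an isoform that links the Ski complex to the exosome, by 0.31 (adjusted p 4.99e-07) and 0.22. SKIC8 fell by 0.16 in U2OS-AsiSI (edgeR adjusted p 0.0114) and had 0.02 in U2OS.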

How the data were processed

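TT-seq counts of 12 libraries in 4 groups of 3 were used, grouped and numbered by the sample titles. Values are the authors' raw counts of reads over each gene's span, laid out as featureCounts writes them per the file headers. Reads were trimmed with Trimmomatic 0.36 and aligned to hg38 with STAR 2.7, and deepTools and featureCounts were used, per the submitters' processing notes. The strand setting and the treatment of duplicate and multi-mapping reads are not given in the sources used here, and the yeast RNA spike was not used here. Reads carry no molecular identifiers, so counting error understates the error of a value.

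The test was edgeR's quasi-likelihood F test (edgeR 4.0.16, R 4.3.3, with filterByExpr, TMM and robust fitting, two-sided) on the libraries compared, and on all 12 for the difference between lines, with Benjamini-Hochberg adjustment over all genes tested and a threshold of 0.05. Each SE divides the size of the log2 fold change by the root of its F value. Levels are CPM with TMM over the 12 libraries. Overlaps use the spans in the tables, and gene types and exons GENCODE 29. Promoters are from RefSeq (GRCh38.p14). All 30 genes are named; per-library values are given for up to 5 that rose and 5 that fell in both lines with the largest mean change, and for genes past the threshold for the difference or under the count filter, plus RBM7 by its range. In the 2 further lists, up to 4 genes with the smallest adjusted p in U2OS-AsiSI are named.

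Tests were checked on simulated data: of genes changed 1.5-fold, 94% were recovered in the U2OS-AsiSI design (20277 genes), 91% in U2OS (20548), 74.6% for the difference (21212) and 86.6% for the lines under siCtrl (19950). At the smallest fold simulated, 1.25, the shares were 71.6%, 59.7%, 41.8% and 65.7%, and 4.57% to 5.85% of calls were false. Most genes of the set changed by less than that fold after siINTS11. Each simulation changed 66 or 67 genes at each fold, up and down alike. In the data 68% and 66.9% of all genes passed after siINTS11 in U2OS-AsiSI and U2OS. The simulated shares therefore do not cover errors that come from scaling. Other settings tried were DESeq2 1.42.0, a replicate block, scaling by size factors or by library totals, no filter on counts, a minimum mean of 50 counts, genes under 0.1 reads per base, thinning to the smallest library, and leaving out each library. The genes, lists and alternatives were chosen with earlier results of these data known. One marker gene is not reported here. Figures were drawn with matplotlib 3.10.9.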

Additional observations from a re-analysis of the deposited data

Results flagged for a closer look

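NRDE2 had an estimated difference between the lines in its response to siINTS11 of -0.20 on the log2 scale in the main fit (U2OS-AsiSI minus U2OS, SE 0.06, edgeR adjusted p 0.0385). It drew attention because the difference itself passed the threshold, with the 3 siINTS11 libraries below the 3 siCtrl libraries in U2OS-AsiSI and overlapping them in U2OS. The call passed in 1 of 20 alternatives, and the cause of the difference was not tested.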

How the results depend on the processing

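Scaling by library totals alone moved the most calls. It gave 15 genes higher and 2 lower in U2OS-AsiSI and 18 higher and 2 lower in U2OS, and 1 lower in the comparison of the lines under siCtrl. Values past the threshold under either scaling that changed sign were, in U2OS-AsiSI, EXOSC10 at 0.15, WDR82 at 0.11, EXOSC9 at 0.0744, PHAX at 0.0237, NCBP1 at 0.18, EXOSC1 at 0.0316, DIS3 at 0.0634, NRDE2 at 0.0214, TENT4B at 0.0164, EXOSC6 at 0.19, MPHOSPH6 at 0.18 and ZC3H18 at 0.18. In U2OS they were EXOSC10 at 0.0489, C1D at 0.0588, TENT4A at 0.16, PHAX at 0.0602, SRRT at 0.19, ZCCHC8 at 0.17, NRDE2 at 0.20, TENT4B at 0.0393, ZC3H18 at 0.0825 and NCBP3 at 0.0837. Restriction to genes under 0.1 reads per base, which tests fewer genes, left 2 higher in U2OS-AsiSI and 1 lower under siCtrl. The difference between the lines gave 0 of the genes tested, and 0 lower, under median-of-ratios size factors, library totals, thinning, DESeq2, the replicate block, a minimum mean of 50 counts, no filter on counts and genes under 0.1 reads per base (29 genes tested, but 28 with DESeq2 and with the minimum of 50, and 26 under 0.1 reads per base), and 0 to 2 with a library left out; over all genes it gave 447 under median-of-ratios size factors, 423 with DESeq2, 514 after thinning and 286 to 946 with a library left out. With a library left out, 13 to 14 of the 29 were called in U2OS-AsiSI, 16 to 17 in U2OS and 10 to 12 between the lines under siCtrl, where 1 to 3 were lower, 1 of them without U2OS siCtrl replicate 1.

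Replicate numbers did not pair the samples: same-numbered deviations correlated at 0.38, -0.03 and -0.02 in U2OS-AsiSI and -0.01, -0.14 and 0.16 in U2OS, and not every sample matched its own number best. The replicate block changed no call of the 29 genes within either line or under siCtrl, gave NRDE2 an adjusted p of 0.0756 for the difference between the lines, and lowered the genes called for that difference to 531. The smallest changes simulated were recovered in part.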
